A study of Sus scrofa with 12 samples.

Results

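Blood mononuclear cells of boars carrying the swine leukocyte antigen allele SLA-DRB1 050502 were compared with those of boars carrying an allele described as potentially new, called New below. The comparison was taken from the labels of the hybridised RNA and comprised 4 of the 12 two-colour cDNA arrays of the study. Yorkshire boars of 3 SLA-DRB1 genotypes were studied, with 2 animals per genotype, and the remaining 8 arrays compared 050502 or New with a genotype called 070701. All animals shared the same preparation: venous blood was passed over a density gradient, the mononuclear cells received no treatment, and their RNA was amplified once before labelling. The labels do not say whether a boar was homozygous, nor which hybridisations used the same animal, so the animals are known only as pairs.

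SLA-DRB1 encodes the beta chain of the class II molecule DR, which holds peptides on the surface of antigen-presenting cells for recognition by CD4+ T cells. Mononuclear cells of blood are mainly T cells, B cells, natural killer cells and monocytes. Monocytes are the main source of interleukin 1, interleukin 8 and several chemokines in this mixture, and B cells and monocytes carry class II molecules. In a mixed cell sample, fewer cells of a type and less RNA per cell cannot be told apart.

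The 4 arrays formed 2 animal pairs. Pair B was hybridised on arrays B1 and B2 and pair A on arrays A1 and A2, and the dyes were exchanged between the arrays of each pair. Arrays B1 and A1 carried 050502 in the green channel and New in the red channel, and arrays B2 and A2 carried them the other way round. Each array held 188 probe identifiers for immune, endocrine and housekeeping genes in 1680 spots. A probe counted as above background in a channel when the median of its spots exceeded the local background by more than 2 background SDs.

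Detection differed among the 4 arrays. On array B1, 67 probes were above background in the 050502 channel and 108 in the New channel. Array B1 was not dim: its median foreground was 911 for 050502 and 1129 for New, against 810 and 812.5 on array A2. Its median background SD was 312 for 050502 and 311 for New, against 95 and 87 on array A2. On array B2 the counts were 182 for 050502 and 175 for New. On array A1, 169 probes were above background for 050502 and 89 for New, and on array A2 the count was 181 in each channel. The second array of each pair was therefore the better measured one, and the other 8 arrays of the study had 171 to 186 probes above background in either channel. Pairs B and A were also scanned on separate dates, so scan date and animal pair cannot be told apart.

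**Figure D1:**
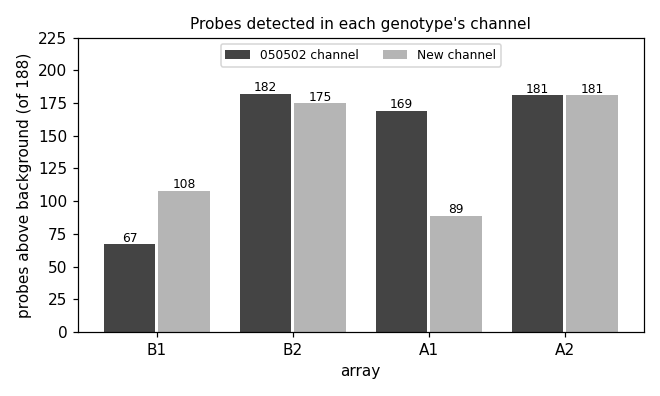
Number of probes above background (vertical axis, of 188) in the 050502 channel (dark bars) and the New channel (light bars) of each array. Arrays B2 and A2 had 175 to 182 probes above background in both channels, and the lowest bars are both channels of array B1 (67 and 108) and the New channel of array A1 (89).

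Values below are log2 ratios of 050502 over New, so that a positive value is a higher level in 050502. Of the 188 probes, 185 were above background on at least 6 of the 12 arrays in at least 1 channel and were tested. The 3 probes left out were those for lactoferrin, IgA and complement C4. A further limit is the signal given by bacterial DNA: 49 of the 185 probes were brighter, on average over the 12 arrays, than both negative-control DNAs printed on the array (VapA and pACYC177), and these are called bright probes.

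The arrays of a dye exchange measure the same RNA, so their agreement gives the technical error. Arrays B1 and B2 correlated across the 185 probes with r = 0.75, and arrays A1 and A2 with r = 0.19. Among the 49 bright probes the values were 0.88 for pair B and 0.66 for pair A. The ratio had the same sign on both arrays for 119 probes in pair B (64.3%) and for 79 probes in pair A (42.7%). These correlations are across probes, which are not independent replicates and share the array. In pair A the dim probes therefore carried little repeatable difference, and the results below rest mainly on probes whose arrays agreed.

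**Figure D2:**
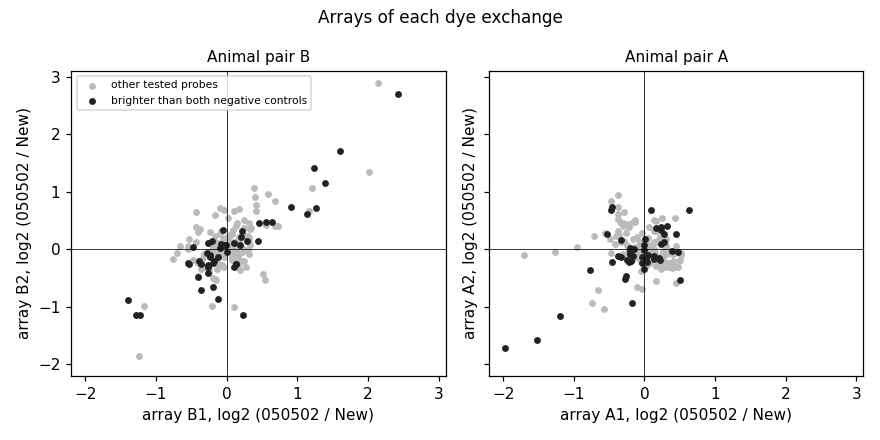
Log2 ratio of 050502 over New on the first array (horizontal axis) against the second array (vertical axis) of the dye exchange of pair B (left) and pair A (right). Each point is 1 of 185 probes and black points are the 49 bright probes. The points lie along the rising diagonal in pair B (r = 0.75) and scatter around 0 in pair A (r = 0.19) apart from a few bright probes at the lower left.

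The probes with the widest ratios had opposite signs in the animal pairs, as was known when this comparison was chosen. IL1b, IL1a, IL8, MPIb, MP1a and TLR2 had positive ratios in pair B and negative ratios in pair A, whereas TNFa, MCP-1, MCP-2 and RANTES of the same lists did not show this pattern. Across all 185 probes the ratios of pair B correlated with those of pair A at r = -0.54, and among the 49 bright probes at r = -0.65. On the better measured arrays alone, B2 against A2, r was -0.58. Within the 25 probes of the lists for inflammatory mediators and for Toll-like receptor (TLR) and NF-kB signalling r was -0.80, and among the other 160 probes it was -0.17. Those 2 lists were picked for this split after the values had been seen, so the split is a description. They held 9 of the 38 probes whose dye exchanges agreed within each pair and whose pairs opposed each other. Since the labels fix which dye carried which genotype, both directions are given as labelled. Which of the directions belongs to the genotypes cannot be settled from 1 animal pair each, and values averaged over both pairs are therefore also given with the sign of pair A turned.

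**Figure D3:**
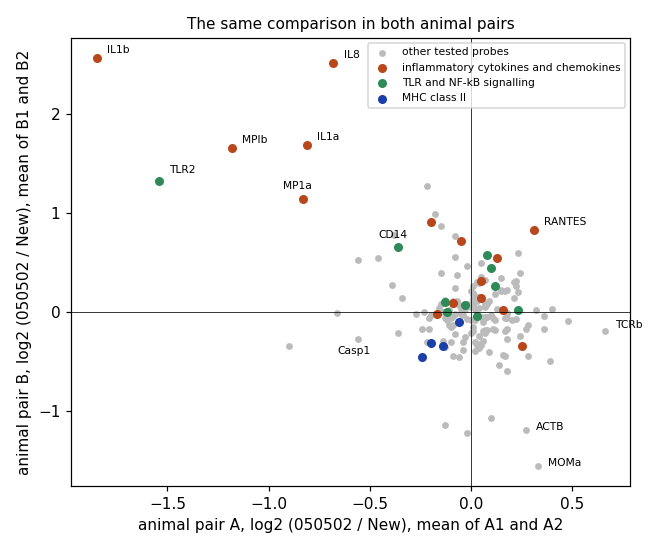
Log2 ratio of 050502 over New in animal pair A (horizontal axis) against pair B (vertical axis), each the mean of 2 dye-exchanged arrays, for 185 probes. IL1b, TLR2, MPIb, IL8, IL1a and MP1a lie at the upper left, higher in 050502 in pair B and lower in 050502 in pair A (r = -0.54 over all probes), and the 4 MHC class II probes lie at the lower left.

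Tests were made with limma across the 185 probes, with 2-sided p-values adjusted by the Benjamini-Hochberg method and a threshold of 0.05. Each pair had a coefficient of its own and the error came from the spread between the animal pairs of the other 2 comparisons, so a single pair was assumed to vary as those did. In pair B, 2 probes passed (1.08% of those tested), IL1b and MCP3, both higher in 050502. Before adjustment, 60 probes had p under 0.05 in pair B (32.4%), of which 31 were higher and 29 lower in 050502. In pair A no probe passed in limma (0%), with 19 at that unadjusted threshold (10.3%), of which 8 were higher and 11 lower. These counts depended on the arrays used: from the second array of each pair alone, which leaves out B1 and A1, 25 probes passed in pair B and 7 in pair A. The first arrays alone also gave more calls than both arrays together, with counts given in the section on processing. Single arrays do not average out the dye, and the cause of the higher counts was not tested. The difference between the pairs, pair B minus pair A, was itself tested, and 1 probe passed (0.541%), IL1b, with 51 at the unadjusted threshold (27.6%). From the second arrays alone that count was 31.

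The disagreement between animal pairs was larger here than in the other comparisons. The absolute difference between pair B and pair A had a median over 185 probes of 0.217 on the log2 scale for 050502 against New. It was 0.129 for 050502 against 070701 and 0.0842 for 070701 against New. More than 1 log2 unit separated the pairs for 18 probes here, against 5 and 4 probes in those comparisons. These counts are descriptions, since each comparison had only 2 pairs.

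Interleukin 1 beta (IL1b, probe CY8), a cytokine that starts fever and inflammation, showed the widest gap. Its background-subtracted signal on array B1 was 2785 for 050502 and 924 for New, and on array B2 it was 17145 for 050502 and 2160 for New. On array A1 the signal was 296 for 050502 and 881 for New, and on array A2 it was 979 for 050502 and 2229 for New. The normalised log2 ratios were 2.43 and 2.69 in pair B and -1.98 and -1.71 in pair A. The ranges of the pairs did not come near each other, and within each pair the dye exchange moved the value by less than 0.3. The mean of pair B was 2.56, a 5.91-fold higher level in 050502 (limma adjusted p = 0.0483). The mean of pair A was -1.85, a 3.59-fold higher level in New, and did not pass (limma adjusted p = 0.195). The difference of pair B minus pair A was 4.41 ± 0.31 (SE; limma adjusted p = 0.0464). Averaged over both pairs the ratio was 0.36 ± 1.01 (SE; limma adjusted p = 0.898), and with pair A turned it was 2.20. The call in pair B was kept under 7 of 8 settings of normalisation and arrays, and so was that of the difference. Neither passed when only the 104 probes above background on all 12 arrays were tested, with limma adjusted p = 0.0773 for pair B and 0.0555 for the difference. Since the opposition of the pairs was known beforehand, the test of the difference is no independent support for it. Both calls were lost, at 0 probes, when either animal pair of 070701 over New was left out of the error estimate, and pair A passed at -1.85 (limma adjusted p = 0.0439) when either pair of 050502 over 070701 was left out.

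Interleukin 1 alpha (IL1a, probe CY7), which signals through the same receptor, followed the same course. Its ratios were 2.02 and 1.34 on arrays B1 and B2 and -0.57 and -1.04 on arrays A1 and A2. IL1a was above background in both channels of all 4 arrays but was not a bright probe. Its signal on array A1 was 353 for 050502 and 388 for New, against 393 and 400 for the control pACYC177. On array A2 it was 460 and 786, against 1390 and 1099. IL1a missed the threshold both in pair B (limma adjusted p = 0.0537) and for the difference between the pairs, which was 2.48 ± 0.24 (SE; limma adjusted p = 0.0636). The interleukin 1 receptor antagonist (IL1antag), which blocks that receptor, lay near 0 on arrays B1 and B2 (0.06 and 0.13) and on arrays A1 and A2 (-0.20 and 0.02). Under 7 of 8 settings of normalisation and arrays IL1a passed in pair B.

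Among the chemokine ligands, the probe MPIb (CH20), read here as macrophage inflammatory protein 1 beta, an attractant of monocytes and T cells, had ratios of 1.61 and 1.70 in pair B and -1.20 and -1.16 in pair A. Interleukin 8 (IL8, probe CH11), which attracts neutrophils, had ratios of 2.14 and 2.88 in pair B and -0.66 and -0.71 in pair A. The probe MP1a (CH19), read as macrophage inflammatory protein 1 alpha, had 1.21 and 1.07 in pair B and -0.74 and -0.93 in pair A. For all 3 the arrays of a pair had the same sign and the pairs stood on opposite sides of 0. The arrays of pair B lay furthest apart for IL8. It was not a bright probe and was above background for New on only 1 array of pair B. None passed the adjusted test in pair B, with limma adjusted p = 0.131 for MPIb, 0.0672 for IL8 and 0.0859 for MP1a. IL8 and MP1a are named because of their values.

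The monocyte chemoattractant MCP3 (probe CH10) was called in pair B on weaker ground. Its ratios were 0.38 and 1.07 in pair B and 0.23 and -0.34 in pair A, with SDs between spots of 0.35 on array B1 and 0.72 on array B2. The mean of pair B was 0.72 (limma adjusted p = 0.0483). It passed under 6 of 8 settings of normalisation and arrays, and did not pass when any of the 4 animal pairs of the other comparisons was left out. In the New channel it was not well above background on either array of pair B, and in the 050502 channel it was above background on only 1. On array B1 its background-subtracted signal was 327 for 050502 and 337 for New, and it was not a bright probe. A bound from the mean of both arrays put its level in 050502 1.41-fold above New. This bound sets the level in 050502 against the lowest signal of any probe above background on each array, or the probe's own signal where that is higher. It is no strict lower limit, since it includes the array on which 050502 was itself not above background. The lowest log2 ratio of pair B among the 8 settings was 0.36. The arrays of pair A disagreed in sign.

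Toll-like receptor 2 (TLR2, probe INN2), a sensor of bacterial lipoproteins on monocytes, had ratios of 1.23 and 1.41 in pair B and -1.52 and -1.57 in pair A. Its difference between the pairs was 2.86 ± 0.44 (SE; limma adjusted p = 0.0937). CD14 (probe INN1), the co-receptor for bacterial lipopolysaccharide and a surface marker of monocytes, had 0.40 and 0.91 in pair B and -0.03 and -0.69 in pair A, a difference of 1.02 ± 0.12 (SE; limma adjusted p = 0.0636). TLR4, the lipopolysaccharide receptor itself, had 0.18 and 0.70 in pair B and 0.40 and -0.21 in pair A. The intracellular sensor NOD2 had 0.73 and 0.41 in pair B and -0.22 and 0.38 in pair A. TLR2 thus had opposite signs in the pairs on every array, whereas TLR4 and NOD2 agreed between arrays only in pair B. The signs of CD14 were opposite too, but its -0.03 on array A1 gives no direction. The negative-control DNAs had -0.24 (VapA) and -0.33 (pACYC177) on that array. CD14 was not a bright probe, and in pair B it was above background on only 1 array in each channel. Nalp3 (probe INN9), the inflammasome scaffold that brings caspase 1 to interleukin 1 beta, had 1.39 and 1.15 in pair B and -0.25 and -0.19 in pair A, and is named because of its values.

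Taken as a list, the inflammatory cytokines and chemokine ligands had 15 tested probes, of which 3 were bright. In pair B 13 of them had positive ratios, with a median of 0.72, 10 were at an unadjusted p under 0.05 (all higher) and 2 passed the adjusted test. In pair A 9 had negative ratios, with a median of -0.09, and 3 were at the unadjusted threshold (all lower). The medians over all 185 probes were -0.01 in pair B and 0.01 in pair A. Of the 185, 90 were positive in pair B and 81 negative in pair A. At the unadjusted threshold were 60 of the 185 in pair B (32.4%, 31 of them higher) and 19 in pair A (10.3%, 11 of them lower). The 10 probes of TLR and NF-kB signalling had a median of 0.18 in pair B and of 0.00 in pair A. The NF-kB subunits on the array contributed little: NFKB1 (probe TCR27) had 0.11 and 0.10 in pair B and -0.03 and -0.24 in pair A, and NFKB2 had -0.01 and 0.06 in pair B and 0.07 and 0.39 in pair A.

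The monocyte and dendritic cell markers were measured beside these genes. Their 9 probes had a median of -0.10 in pair B (0.03 with median centring in place of loess) and -0.13 in pair A. All 9 were above background on arrays B2 and A2. On array B1, 4 were above background for 050502 and 6 for New, and on array A1 9 for 050502 and 6 for New. Summed over the 9 probes, they made up 4.26% and 4.51% of the array signal of 050502 in pair B, against 4.03% and 4.35% for New. In pair A they made up 4.82% and 3.71% for 050502, against 4.07% and 4.14% for New. These sums rest heavily on FcRgIII, which is also in the list of natural killer markers. On array B1 its signal was 4278 for 050502 and 7089 for New, and that of FcRg was 2866 and 6190. CD14 had 573 and 679 there. The Fc gamma receptor probe FcRg had -0.19 and -0.24 in pair B and -0.26 and -0.46 in pair A. CD14, given above with its limits, was positive on both arrays of pair B and negative on both arrays of pair A, though only -0.03 on array A1. The part of monocyte numbers in the inflammatory ratios was not tested.

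Of the markers of cells that the gradient should remove, lactoferrin of neutrophils had no usable spots on arrays B2 and A2. On arrays B1 and A1 it was not above background in either channel. The other, an interleukin 8 receptor probe (IL8R), had 0.69 and 0.84 in pair B and 0.08 and -0.24 in pair A. On array B1 the 2 probes together made up 0.397% of the signal of 050502, against 0.195% for New. On array A1 they made up 0.419% for 050502, against 0.308% for New. IL8R alone made up 0.386% for 050502 on array B2, against 0.187% for New. On array A2 it made up 0.168% for 050502, against 0.248% for New. The shares of the arrays of a pair therefore cover different probes. The part of these cells in the inflammatory ratios was not tested.

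**Figure D4:**
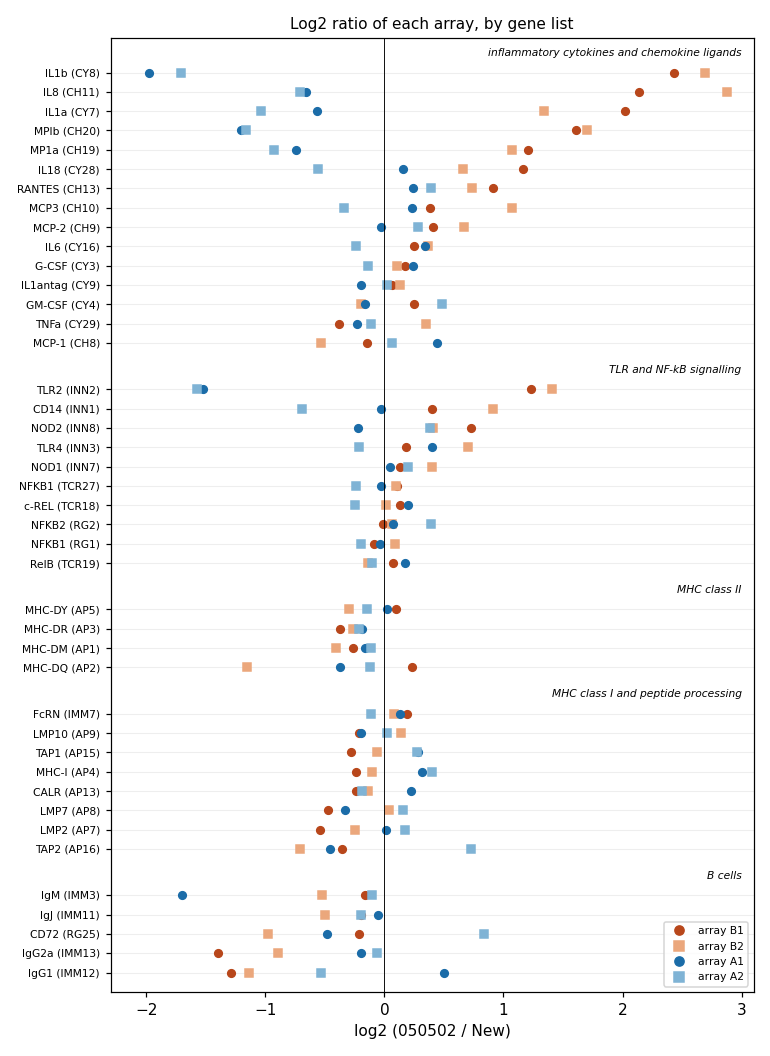
Log2 ratio of 050502 over New (horizontal axis) on each of the 4 arrays for the tested probes of 5 gene lists, ordered within a list by the mean of pair B. Orange symbols are arrays B1 and B2 and blue symbols are arrays A1 and A2. For IL1b the orange points lie at 2.43 and 2.69 and the blue points at -1.98 and -1.71, whereas the 4 points of MHC-DR lie between -0.37 and -0.19.

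The T cell receptor beta chain (TCRb, probe TCR6) had the opposite signs to the inflammatory genes. Its ratios were -0.18 and -0.20 in pair B and 0.63 and 0.69 in pair A, a difference of -0.85 ± 0.14 (SE; limma adjusted p = 0.0937). The alpha chain (TCRa) had -0.10 and 0.02 in pair B and 0.45 and 0.27 in pair A. CD28, a co-stimulatory receptor of T cells, had 2 probes. Probe RG12 had -0.41 and -0.46 in pair B and 0.18 and 0.15 in pair A, and probe AP11 had -0.25 and -0.39 in pair B but 0.15 and -0.06 in pair A, where its arrays disagreed in sign. Of the 17 T cell probes, 13 were negative in pair B and 7 in pair A, with medians of -0.06 and 0.04. Their summed share of the signal was 7.59% and 7% for 050502 in pair B, against 8.26% and 8.18% for New. In pair A it was 7.82% and 7.54% for 050502, against 5.98% and 6.22% for New. TCRb alone made up 25.6% to 54.8% of that summed signal. Without it, the share in pair B was 4.41% and 4.15% for 050502, against 3.74% and 4.24% for New. In pair A it was 4.92% and 4.69% for 050502, against 3.86% and 4.63% for New. The lower share of 050502 on array B1 was therefore not seen without TCRb. Of the 17 markers, 7 were above background for 050502 on array B1 and 10 for New, and 16 for 050502 on array A1 and 8 for New.

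Other probes also had opposite signs in the pairs. Beta actin (ACTB), the cytoskeletal protein used as a housekeeping control, had -1.23 and -1.14 in pair B and 0.16 and 0.37 in pair A. The ribosomal protein probe RPL19 had 1.14 and 0.61 in pair B and -0.21 and -0.09 in pair A. The remaining housekeeping probes stayed closer to 0: GAPDH had -0.08 and 0.09 in pair B and -0.33 and -0.13 in pair A, and HPRT had 0.00 and -0.04 in pair B and -0.15 and 0.00 in pair A. None of the 4 passed in either pair, but the direction of GAPDH in pair B depended on scaling, at -0.61 with median centring and -0.75 in the deposited values, where it passed (limma adjusted p = 0.0315). CXCR4, a chemokine receptor that retains leukocytes in bone marrow, had 1.27 and 0.71 in pair B and 0.00 and -0.35 in pair A. The probe MOMa (CY44) had -1.24 and -1.86 in pair B and 0.17 and 0.49 in pair A.

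Counted over all tested probes, both dye exchanges gave a consistent sign for 55 probes (29.7%). Of these, 38 had opposite signs in the pairs: 17 were higher in 050502 in pair B and lower in pair A (9.19%), and 21 were lower in pair B and higher in pair A (11.4%). The other 17 had the same sign on all 4 arrays (9.19%), 8 of them higher in 050502 (4.32%) and 9 lower (4.86%). Among the 49 bright probes 18 were opposed and 8 had 1 sign on all arrays, 2 higher and 6 lower.

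The probes with 1 sign on all arrays are those in which both animal pairs and both dyes gave the same direction. The lower ones included MHC-DR (probe AP3), the class II molecule whose beta chain carries the alleles compared. Its ratios were -0.37 and -0.26 in pair B and -0.19 and -0.21 in pair A, and the SD between spots was 0.05 to 0.08. Averaged over both pairs it was -0.26 ± 0.07 (SE), a 1.20-fold higher level in New, with a 95% interval of -0.45 to -0.07, and it did not pass (limma unadjusted p = 0.0175, adjusted p = 0.558). With pair A turned, the average was -0.06. MHC-DM (AP1), which loads peptide onto DR, had -0.26 and -0.41 in pair B and -0.16 and -0.11 in pair A. MHC-DQ (AP2), the second peptide-presenting class II molecule, differed between the arrays of pair B, at 0.23 on B1 and -1.15 on B2, and had -0.37 and -0.12 in pair A. The probe MHC-DY (AP5) had 0.10 and -0.30 in pair B and 0.02 and -0.15 in pair A.

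All 4 class II probes were bright and had negative means in both pairs, with list medians of -0.33 in pair B and -0.17 in pair A. None passed the adjusted test in pair B, in pair A or in their average. In pair B 2 were at the unadjusted threshold, as were 32.4% of all tested probes. The size depended on scaling: the median in pair B was -0.70 with median centring and -0.81 in the deposited values. On the first arrays alone it was -0.08, with 2 of 4 probes negative. In the deposited values, centred per array, MHC-DM had -0.87 in pair B and passed (limma adjusted p = 0.0381), and MHC-DR had -0.88 and passed narrowly (limma adjusted p = 0.05 after rounding). On the second arrays alone MHC-DQ had -1.15 in pair B and passed (limma adjusted p = 0.0171). The sequences of these probes were not used here, so whether the alleles bind the DR probe equally was not tested.

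The group CD1a,b,d (probe AP10), which presents lipids on dendritic cells and monocytes, was also lower on all 4 arrays, at -0.39 and -0.21 in pair B and -0.22 and -0.22 in pair A. Caspase 1 (Casp1, probe RG21), which cleaves interleukin 1 beta to its active form, had -0.26 and -0.27 in pair B and -0.77 and -0.36 in pair A. It did not follow IL1b in pair B. The transcription factor NFAT1 had -0.18 and -0.15 in pair B and -0.05 and -0.38 in pair A.

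Immunoglobulin genes, expressed by B cells and plasma cells, had negative ratios in pair B. IgG2a had -1.40 and -0.89 in pair B and -0.20 and -0.06 in pair A. IgG1 had -1.29 and -1.14 in pair B and 0.50 and -0.53 in pair A. The joining chain IgJ had -0.20 and -0.50 in pair B and -0.05 and -0.20 in pair A. IgM was not well above background in either genotype in pair A. In pair B its ratios were -0.16 and -0.52, and it was above background for New on 1 of the 2 arrays and for 050502 on neither. A bound from the mean of both arrays put it 1.21-fold higher in New there, which is no strict lower limit, since array B1 alone had -0.16. CD72, a receptor on B cells, had -0.21 and -0.98 in pair B and -0.48 and 0.84 in pair A. All 5 tested probes of the list were negative in pair B, with a median of -0.60, and 4 were negative in pair A, with a median of -0.13. At the unadjusted threshold there were 3 in pair B and none in pair A, and none passed the adjusted test. Of all tested probes, 32.4% were at the unadjusted threshold in pair B and 10.3% in pair A. In pair B, IgG1 passed under 4 of 8 settings of normalisation and arrays (limma adjusted p = 0.0466 at -1.19 with median centring), CD72 under 2 and IgG2a under 1. The summed B cell signal was 1.06% and 1.22% for 050502 in pair B, against 1.47% and 1.92% for New, and 1.58% and 1.67% for 050502 in pair A, against 1.54% and 1.73% for New. Of the 6 B cell markers, 1 was above background for 050502 on array B1 and 5 for New, and 4 for each genotype on array B2. The ratios of array B1 therefore rest on a 050502 channel with few of these markers above background. On these 4 arrays alone, IgG1 was not brighter than both negative-control DNAs.

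The higher ones on all 4 arrays were led by RANTES (probe CH13), a chemokine of T cells and natural killer cells. Its ratios were 0.91 and 0.74 in pair B and 0.24 and 0.39 in pair A, and the average was 0.57 ± 0.18 (SE), with a 95% interval of 0.11 to 1.03 (limma unadjusted p = 0.0241, adjusted p = 0.558). CCR4, a receptor of helper T cells, had 0.32 and 0.45 in pair B and 0.17 and 0.31 in pair A. Interferon gamma (IFNg), the macrophage-activating cytokine of T and natural killer cells, had 0.30 and 0.23 in pair B and 0.13 and 0.32 in pair A. It averaged 0.24 ± 0.06 (SE; limma unadjusted p = 0.00928, adjusted p = 0.558). IFNg was not a bright probe, and in the New channel it was above background on only 2 of the 4 arrays. The probe B2 (HK3) had 0.45 and 0.15 in pair B and 0.28 and 0.13 in pair A. CCR8, IFNrf8, IL13 and NOD1 were the other 4. In these, ratios ran from 0.05 to 0.40. In the average over both pairs no probe passed (0%), and 15 were at the unadjusted threshold (8.11%), of which 10 were higher and 5 lower. With the sign of pair A turned, 4 probes passed, all higher: IL1b, TLR2, Casp13A and the cytokine IL10. Turning the sign follows the opposition already seen and favours the probes that oppose most, so this count is a description.

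The 8 class I presentation probes were all bright, and 3 of them, MHC-I, TAP1 and LMP2, had negative ratios in pair B and positive ratios in pair A on every array. MHC-I, the class I heavy chain, had -0.24 and -0.10 in pair B and 0.32 and 0.40 in pair A. TAP1, part of the peptide transporter, had -0.28 and -0.06 in pair B and 0.28 and 0.27 in pair A. LMP2, an immunoproteasome subunit, had -0.54 and -0.25 in pair B and 0.01 and 0.17 in pair A. TAP2 had -0.36 and -0.71 in pair B, but -0.46 and 0.73 in pair A, where the arrays disagreed. The means of the subunits LMP7 and LMP10 were negative in both pairs, at -0.22 and -0.04 in pair B and -0.08 and -0.09 in pair A. Of the 8 probes 7 were negative in pair B and 2 in pair A, and none passed. With median centring, MHC-I in pair B was -0.71 and passed (limma adjusted p = 0.0347), and so did LMP2 at -0.52 (limma adjusted p = 0.0466).

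MIF, IL10 and Casp13A were among the probes of smallest p with negative ratios in pair A. MIF, a macrophage cytokine, had 0.20 and -0.21 in pair B and -1.27 and -0.04 in pair A. It was not well above background for 050502 in pair A, and for New it was above background there on 1 of the 2 arrays. A bound from the mean of both arrays put it 1.31-fold higher in New there, but array A2 alone showed no such difference. IL10, which restrains inflammation, had 0.68 and 0.40 in pair B and -0.96 and 0.04 in pair A. Casp13A had 0.56 and 0.48 in pair B and -0.18 and -0.94 in pair A. Among those higher in pair A, Daxx, a regulator of cell death, had -0.04 and -0.14 in pair B and 0.43 and 0.54 in pair A. TGFb-2, a member of the transforming growth factor family, had -1.17 and -0.98 in pair B and 0.26 and -0.07 in pair A. Natural killer and cytotoxic markers differed little, with granzyme at -0.03 and 0.07 in pair B and -0.21 and -0.01 in pair A.

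**Figure D5:**
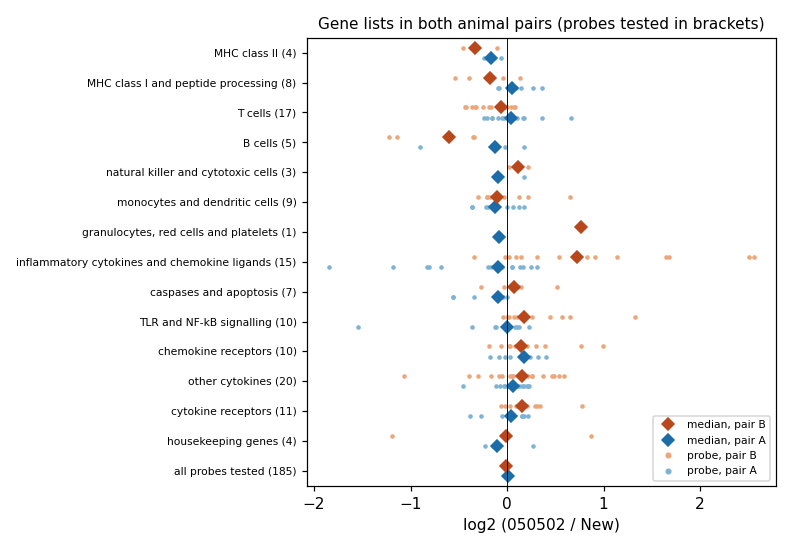
Log2 ratio of 050502 over New (horizontal axis) of the tested probes in each gene list (dots) and the list median (diamonds), for pair B (orange) and pair A (blue), with the number of tested probes in brackets. The inflammatory list has a median of 0.72 in pair B and -0.09 in pair A, and the class II list lies below 0 in both (-0.33 and -0.17).

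The other comparisons share animals with this one and are given only beside it. In 050502 over 070701, IL1b had log2 ratios of 2.15 and 2.18 in pair B and 1.29 and 1.88 in pair A, and in 070701 over New it had 0.24 and 0.13 in pair B and -0.03 and 0.33 in pair A. TLR2 had 1.10 and 1.14 in pair B and 0.57 and 0.69 in pair A for 050502 over 070701, and 0.71 and 0.73 in pair B and 0.05 and 0.07 in pair A for 070701 over New. For both genes 050502 over 070701 was positive on all 4 arrays. Other opposed probes split by letter there too: CXCR4 had 1.87 and 1.31 in pair B and -0.94 and -0.46 in pair A, and ACTB had -0.54 and -0.27 in pair B and 1.13 and 0.91 in pair A. These 4 genes were picked with their values in view. The labels do not say whether a letter marks the same animals across comparisons.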

How the data were processed

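Members and gene lists were chosen with earlier results of these data known. Each array was deposited as scanner intensity values (GenePix Pro 6.0.1.25, per the file headers), with foreground and background medians at 635 and 532 nm. The percent of saturated pixels per spot is also deposited and reached 49% on these 4 arrays. The deposited log2 table held the scanner log ratio within 5e-04, neither centred (medians -0.69 to 0.60) nor turned by the authors. In limma 3.58.1 (R 4.3.3), background was corrected with normexp (offset 50), and log ratios were normalised by loess within each array, with control and flagged spots at weight 0. Spots were averaged per probe, ratios turned to 050502 over New by the channel labels, and dye exchanges averaged, giving 6 hybridised pairs. The model had a coefficient per genotype comparison (averaged result) or separate coefficients for pairs A and B. P-values measure the spread between hybridised pairs. The exact detection rule was settled after seeing the files. Probe names are those printed in the files, and 102 of 184 distinct names were found in the Sscrofa11.1 gene table. Named probes were those of smallest p per direction and pair, those of 1 sign on 4 arrays, class II, housekeeping and the brightest members of each of 14 lists; others are said to be named for their values. The number of arrays limits the precision. The fits were run on simulated ratios with planted differences, which checked the direction and size of the estimates. The simulated noise was independent and held no dye bias, low detection or shared animals.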

Additional observations from a re-analysis of the deposited data

Results flagged for a closer look

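IL1b was singled out for the difference between its animal pairs, 4.41 for pair B minus pair A. The opposition of the pairs was known beforehand, so its test (limma) is no independent support. CD1a,b,d was singled out because array B1, at -0.39, stood apart from the other 3 arrays, which lay between -0.22 and -0.21. FasL, a death ligand of cytotoxic cells, stood apart on array A1 at -0.25, against 0.07 to 0.12 on the other arrays. TNFR-1 stood apart on array A1 at 0.36, against -0.07 to -0.03 on the others. Array A1 had few probes above background in its New channel and array B1 in both channels. With 69 probes examined this way, some such gaps arise by chance.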

How the results depend on the processing

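The counts of probes that passed (limma, adjusted p under 0.05) depended on the processing, and the cause was not tested. In pair B, against 2 probes, the count was 11 with median centring, 8 without background correction, 0 with the median over spots, 43 in the deposited values, 4 with no filter on low signals, 0 with detection on all 12 arrays (104 probes tested), 1 among bright probes, 8 on the first arrays and 25 on the second arrays. In pair A, against 0, it was 3 on the first and 7 on the second arrays. For pair B minus pair A, against 1, it was 5 with median centring, 3 with loess per print block, 0 without background correction, 13 in the deposited values, 0 with detection on all 12 arrays, 11 on the first and 31 on the second arrays. Leaving out an animal pair of the other comparisons gave 0 to 1 in pair B, 0 to 1 in pair A and 0 to 1 for the difference. The average over both pairs passed for 0 probes, for 4 with pair A turned (limma), and for 0 to 2 when a pair was left out, the 2 being IL1b and MCP3 without replicate A.

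The labels do not say whether the letters A and B pair animals across comparisons. Deviations of same-lettered pairs correlated at 0.53, 0.62 and 0.43 across 185 probes, a hint from the data with only 2 letters, and the test of pair B minus pair A takes no account of it. A fit with the letter as a replicate block, added after seeing the data, gave 0 probes for the average, with 25 at an unadjusted p under 0.05. Scan date as a random block over single arrays also gave 0 for the average and could not be fitted for a single pair.

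For the 69 probes named by rule, 8 settings gave 552 ratios in each pair, of which 46 changed sign in pair B and 36 in pair A. In pair B 50 of the 69 probes never changed sign, and in pair A 47. With median centring in place of loess, the sign changed in pair B for B2 (-0.02), GAPDH (-0.61), FcRN (-0.2), TCRg (-0.08), Granzyme (-0.16), TNFR-2 (0.01) and in pair A for IgG1 (0.02), Bcl-Xl (0.05), CCR3 (0), TNFb (-0.05), IL2R (0.06). With loess per print block, the sign changed in pair B for NFKB2 (-0.01), GAPDH (-0.02), HPRT (0), TCRg (-0.02), TNFR-2 (0.02) and in pair A for IgG1 (0.02). Without background correction, the sign changed in pair B for Daxx (0), HPRT (0.01), Granzyme (-0.03), Bcl-Xl (0.01), NFKB1 (-0.06). With an offset of 10, the sign changed in pair B for GAPDH (0), TCRg (-0.01). With the median over spots, the sign changed in pair B for MCP-1Ra (-0.03), NFKB2 (-0.02), GAPDH (-0.01), TNFR-2 (0.02) and in pair A for IL2 (-0.01). In the deposited values, centred per array, the sign changed in pair B for Daxx (0.02), B2 (-0.14), GAPDH (-0.75), FcRN (-0.34), TCRg (-0.06), FcRgIII (-0.1), Granzyme (-0.28), Bcl-2 (-0.03), Bcl-Xl (0.06), NFKB1 (-0.07) and in pair A for IL2 (-0.01), FcRN (-0.05), Bcl-Xl (0.05), CCR3 (-0.03), LTb (-0.07), TNFb (-0.09), IL2R (0.05). On the first array of each pair alone, the sign changed in pair B for NFKB2 (-0.01), MIF (0.2), MHC-DQ (0.23), MHC-DY (0.1), GAPDH (-0.08), HPRT (0), Granzyme (-0.03), Bcl-2 (-0.05), Bcl-Xl (0.12), IL2R (-0.17) and in pair A for MCP3 (0.23), NOD2 (-0.22), IL2 (-0.1), IgG1 (0.5), TAP2 (-0.46), MHC-DY (0.02), CD72 (-0.48), IL8R (0.08), Bcl-Xl (0.11), IL16 (0.05), TNFb (-0.06). On the second array of each pair alone, the sign changed in pair B for MCP-1Ra (-0.11), TCRa (0.02), TCRg (-0.53), TNFR-2 (0.12) and in pair A for IL10 (0.04), TGFb-2 (-0.07), FcRN (-0.11), TCRg (0.17), FcRgIII (-0.03), FasL (0.07), FcRgII (-0.08), CCR3 (-0.23), LTb (-0.15), IL2R (0.04), TNFR-1 (-0.03).

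Few arrays, and few probes above background in both channels of array B1 and the New channel of array A1, limit these results. Most probes were no brighter than bacterial DNA, and a single animal pair stands behind each direction.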
